A study of Drosophila melanogaster with 12 samples.

Results

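Mitochondrial genome transcripts were examined in RNA sequencing of whole adult Drosophila melanogaster females in which the estrogen-related receptor (ERR), a nuclear receptor that regulates energy metabolism, was conditionally removed. The genes were chosen by name: the 37 genes of the count table whose symbol starts with mt:, of 17558 genes in all. They comprise 13 protein genes, 2 rRNA genes and 22 tRNA genes. The rule used no measured value, although it was set with earlier results of these data known.

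The 12 libraries fall into 4 groups of 3, and each library was made from 10 whole females. ERR[cond.2] females carry an ERR::GFP genomic transgene flanked by FRT sites over the ERR[1] and ERR[2] mutant alleles, and heat shock drives its removal. ERR[cond.19-4] females carry an endogenous ERR gene flanked by FRT sites over ERR[2], a deletion that also removes parts of Atg18 and CG7979. Knockout females of either stock were heat shocked at 0 to 2 d of age and again a day later, and control females were siblings without heat shock that carry the same alleles. All were collected 7 d after heat shock. Because every knockout was heat shocked and no control was, loss of ERR and heat shock cannot be told apart. The count columns give a stock number, not the allele name. Number 2 was read as ERR[cond.2] and number 1 as ERR[cond.19-4], a match that no source states. RNA came from 3 independent experiments, and the libraries were selected with oligo(dT), so that every level given here is that of RNA captured through a poly(A) stretch.

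The mitochondrial genome is transcribed from both strands into long precursors, and the tRNAs that lie between the other genes are cut out to release the rRNAs and mRNAs. Its protein genes encode core subunits of respiratory complexes I, III, IV and V, which are assembled together with many nuclear-encoded subunits, whereas complex II is wholly nuclear. The rRNAs and tRNAs serve the mitochondrion's own translation, while the polymerase, transcription factors and ribosomal proteins that express the genome come from the nucleus.

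Total counts ran from 17167432 to 20625801 per library. ERR itself, which checks the labels, was lower in ERR[cond.19-4] knockouts than in their controls by edgeR's quasi-likelihood test (log2 difference -0.83 ± 0.18 SE, adjusted p = 0.0228). In ERR[cond.2] it did not pass by the same test (0.01 ± 0.17, edgeR adjusted p = 0.988), so that the ERR count does not separate the libraries labelled ERR[cond.2] knockout from their controls and checks nothing about that label. Male accessory gland and testis markers (Acp26Aa, Acp36DE, SP, Mst84Da) had 0 to 3 counts per library, with SP and Mst84Da at 0 throughout. Yolk protein genes took 2.77 to 5.01% of counts in 3 of the groups and 5.65 to 8.65% in ERR[cond.2] controls. The ERR[cond.2] libraries numbered 1 had the highest share of mitochondrial protein gene counts of their groups (control 1 at 2.26%, against 1.73 and 1.68%, and knockout 1 at 2.49%, against 1.99 and 1.94%).

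Mitochondrial genes were among the most abundant transcripts in these females. Together they took 9.80, 11.1 and 11.9% of all counts in ERR[cond.19-4] controls. They took 12.0, 11.5 and 11.8% in ERR[cond.19-4] knockouts. In ERR[cond.2] the shares were 14.0, 12.7 and 12.1% in controls and 12.7, 12.0 and 10.1% in knockouts. The knockout and control libraries overlapped in both stocks. With the stock kept, the knockout libraries were 0.252 percentage points lower on average (exact permutation test over libraries within stocks, two-sided, p = 0.735, Benjamini-Hochberg adjusted over 36 tests of shares and ratios 0.827). This difference ran from -0.54 to 0.129 points with 1 library left out, and it was above 0 without ERR[cond.2] control 1 (0.0122) or ERR[cond.2] knockout 3 (0.129).

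A single gene made up most of this share. mt:lrRNA, the large ribosomal subunit RNA (FBgn0013686; mitochondrial contig 12734 to 14058, minus strand, in the count table's own coordinates), had the highest count of all genes, with 9.38% of everything counted over 12 libraries. The next 3 genes were the yolk protein genes Yp3 (1.76%), Yp2 (1.74%) and Yp1 (0.785%). mt:CoI, subunit I of cytochrome c oxidase, ranked 7 with 0.668%, and mt:CoIII, subunit III of the same complex, ranked 8 with 0.586%. The small subunit RNA, mt:srRNA (FBgn0013688; 14131 to 14916, minus strand), had only 1102 to 2674 counts per library. There were 735 to 1609 mt:lrRNA counts for each mt:srRNA count. With oligo(dT) selection, this ratio is one of captured RNA, and the ratio in the cell was not measured.

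Levels per length also spread widely among the protein genes. On the scale of CPM per kb of gene (counts scaled to a common library size after TMM normalization), mt:CoIII was the highest protein gene in all 12 libraries, at 5063 to 9521. mt:CoI had 3048 to 5410, mt:CoII, the remaining oxidase subunit of the mitochondrial genome, had 3720 to 5539, and mt:ATPase6, a membrane subunit of ATP synthase, had 2754 to 5731. These 3 ranges overlapped. mt:Cyt-b, the mitochondrial subunit of complex III, followed at 1801 to 3420. The complex I subunits were lower: mt:ND3 at 852 to 1618, mt:ND1 at 672 to 1087, mt:ND4 at 564 to 923, mt:ND5 at 192 to 416 and mt:ND2 at 54.4 to 152. The order of these 5 had overlaps between neighbours, except that every mt:ND5 value lay below every mt:ND4 value and above every mt:ND2 value.

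**Figure D1:**
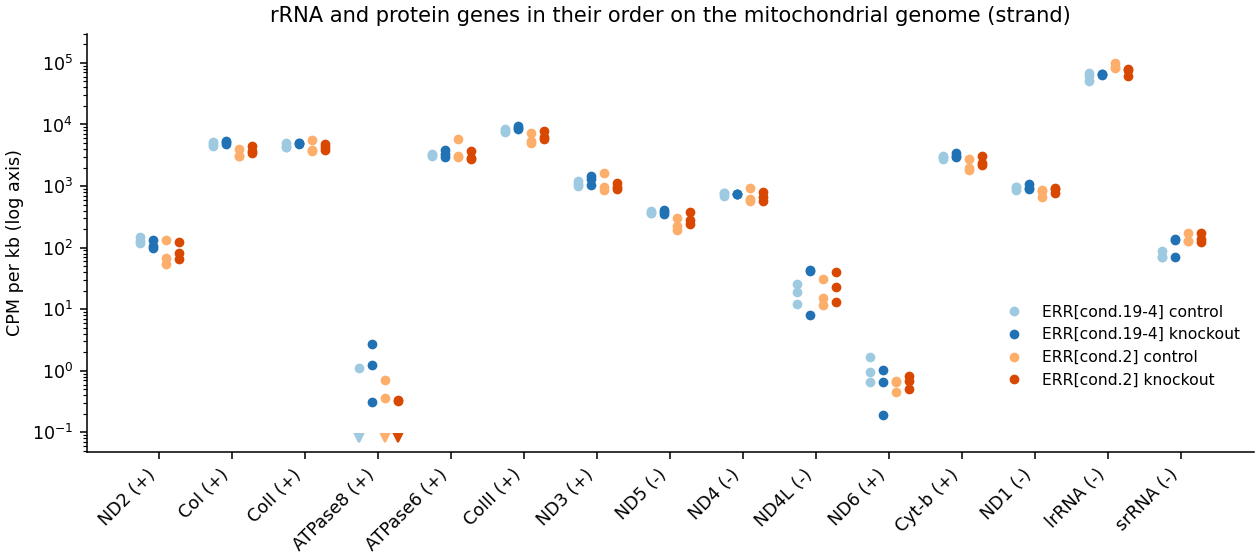
Level of each rRNA and protein gene in the 12 libraries, as CPM per kb on a log axis, with genes in their order along the mitochondrial genome and their strand in parentheses. Each point is 1 library, colour marks the group, and triangles at the bottom mark libraries with 0 counts. mt:lrRNA lies at 50247 to 100758, whereas mt:ATPase8 lies at 0 to 2.70 and mt:ND6 at 0.191 to 1.71.

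The remaining 3 protein genes were near the lower limit of the data. mt:ND4L, a small complex I subunit, had 47 to 254 counts, mt:ND6, another complex I subunit, had 2 to 20, and mt:ATPase8, the second ATP synthase subunit, had 0 to 9 with 0 in 4 libraries. A count of 0 allows up to 3 counts, so that these counts neither show nor exclude its presence in these 4 libraries. mt:ATPase8 shares 7 bases with mt:ATPase6, mt:ATPase6 shares 1 base with mt:CoIII, and mt:ND4 shares 1 base with mt:ND4L. Reads across such borders can be dropped or assigned to either gene, so the division of counts within these pairs is uncertain. The settings of the counting, strand included, are not stated in what was read here. Without strand, antisense RNA of a gene cannot be told from its own transcript. Whether nuclear copies of mitochondrial sequence share reads with these genes was not tested.

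The 22 tRNA genes together had 2464 of 27134887 mitochondrial counts. Of these genes, 8 (mt:tRNA:I, mt:tRNA:S:AGY, mt:tRNA:E, mt:tRNA:F, mt:tRNA:H, mt:tRNA:T, mt:tRNA:P and mt:tRNA:S:UCN) were at 0 in every library, 6 had a count in every library, and 8 had counts in some. The highest was mt:tRNA:G, the glycine tRNA between mt:CoIII and mt:ND3, with 36 to 162 counts. Short RNAs without a poly(A) tail are poorly captured by these libraries, so these counts need not be mature tRNAs.

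The shares of the rRNA and protein genes were then compared between the stocks. The rRNA genes took 7.21, 8.47 and 9.15% of counts in ERR[cond.19-4] controls, against 11.7, 11.0 and 10.4% in ERR[cond.2] controls, without overlap. The protein genes had the opposite order, with 2.58, 2.66 and 2.70% in ERR[cond.19-4] controls, against 2.26, 1.73 and 1.68% in ERR[cond.2] controls. Knockouts had rRNA shares of 9.00, 8.68 and 9.09% in ERR[cond.19-4] and 10.2, 9.97 and 8.12% in ERR[cond.2], which overlapped. Their protein gene shares were 2.97, 2.85 and 2.70% in ERR[cond.19-4] and 2.49, 1.99 and 1.94% in ERR[cond.2], so that all 6 ERR[cond.2] libraries lay below all 6 of ERR[cond.19-4].

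With the heat shock kept, protein genes took 0.730 percentage points less in ERR[cond.2] libraries (exact permutation test, two-sided, p = 0.005, the smallest that 400 arrangements allow; adjusted p = 0.06). The rRNA share was 1.64 points higher (exact permutation p = 0.02, adjusted 0.18). The tRNA share was lower by 0.000526 points (exact permutation p = 0.005, adjusted 0.06). None of the 36 tests passed 0.05 after adjustment. Exact permutation tests of 3 libraries against 3 cannot give a p under 0.1. Even the tests at 0.005, the smallest p of 400 arrangements, adjusted to 0.06. The number and resolution of the tests thus limit what could pass. Without both ERR[cond.2] libraries numbered 1 the protein gene difference was -0.91 points (exact permutation p = 0.01, the smallest that the fewer arrangements allow), and the rRNA difference was 1.27 points (exact permutation p = 0.09). These libraries had the highest protein gene shares of the ERR[cond.2] groups, so leaving them out had to widen the protein gene difference.

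Counts of the protein genes per mt:lrRNA count showed the contrast within the mitochondrial transcripts. They were 0.359, 0.314 and 0.296 in ERR[cond.19-4] controls, against 0.330, 0.329 and 0.298 in ERR[cond.19-4] knockouts. In ERR[cond.2] they were 0.193, 0.158 and 0.162 in controls and 0.243, 0.200 and 0.239 in knockouts. All 6 ERR[cond.2] libraries were below all ERR[cond.19-4] libraries, and ERR[cond.2] knockouts were all above their controls. The log2 ratio of mt:lrRNA to the protein genes was 0.71 higher in ERR[cond.2] with the heat shock kept (exact permutation p = 0.005, adjusted 0.06). Between ERR[cond.2] knockouts and controls this ratio differed by -0.41 (exact permutation p = 0.1, the smallest that 3 libraries against 3 allow; adjusted 0.212). The same difference in ERR[cond.19-4] was 0.01 (exact permutation p = 1), and the difference between the 2 stocks in this change was -0.43 (exact permutation p = 0.085, adjusted 0.212). The last p comes from labels permuted within each stock, so it refers to no change in either stock and not to equal changes.

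**Figure D2:**
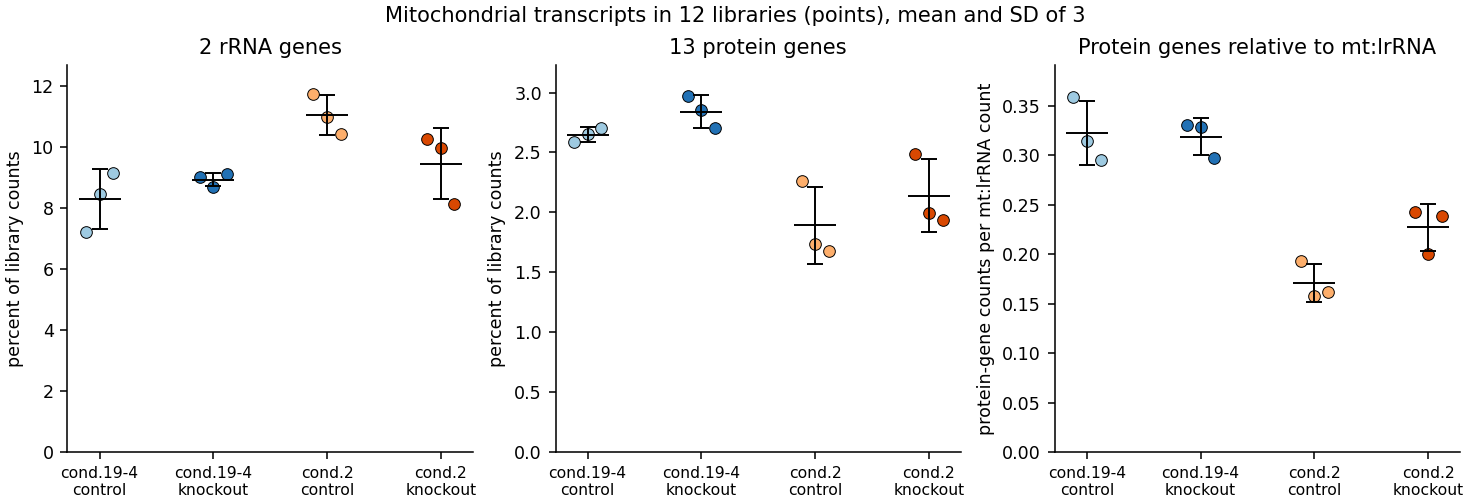
Percent of library counts from the 2 rRNA genes and from the 13 protein genes, and protein gene counts per mt:lrRNA count, with 1 point per library and the mean and SD of 3 libraries per group. The ERR[cond.2] libraries have 0.158 to 0.243 protein gene counts per mt:lrRNA count, below the 0.296 to 0.359 of the ERR[cond.19-4] libraries.

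By gene, edgeR tested 20 of the 37 members between the control groups, and the other 17 were below its filter on low counts. Of the 20, 5 were lower and 2 were higher in the ERR[cond.2] control group, whereas 46.9% of all genes tested were called in this comparison. The groups did not overlap for 9 of the 20, 3 higher and 6 lower, beside 56.5% of all genes. Neither count of members is a larger share than that over all genes. The members' median log2 difference was -0.27, beside -0.02 over all genes. It was -0.53 without ERR[cond.2] control 1 and -0.58 without both ERR[cond.2] libraries numbered 1. With the heat shock as a term and all 12 libraries, a comparison added after the difference between the controls had been seen, 7 members were lower and 2 were higher, beside 46% of all genes called. The stocks differ in alleles and genetic background, which cannot be told apart; whether the females of the 2 stocks carry the same mitochondrial genome was not tested. Scaling mattered here: total counts as library size moved the median of all genes between the controls from -0.02 to -0.19 and gave 7 members lower and 2 higher, with 3686 genes lower and 1529 higher in all, against 2429 and 2278 with TMM. Scaling to the mitochondrial protein genes moved that median to 0.33, with 0 members lower and 3 higher. The lower calls of single protein genes were made relative to the transcriptome and did not pass relative to the mitochondrial mRNAs as a whole, while both rRNAs were higher under every scaling tried.

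Both rRNAs were higher in ERR[cond.2] controls. mt:lrRNA had 66577, 80692 and 90597 CPM in ERR[cond.19-4] controls, against 133504, 112035 and 111037 CPM in ERR[cond.2] controls (log2 difference 0.58 ± 0.13 SE, edgeR adjusted p = 0.0031). mt:srRNA had 70.2, 54.6 and 56.3 CPM against 134, 101 and 102 CPM (0.90 ± 0.22, edgeR adjusted p = 0.0063). Neither gene's control groups overlapped. In knockouts, mt:lrRNA had 87024, 83139 and 86419 CPM in ERR[cond.19-4] and 103409, 103537 and 80701 CPM in ERR[cond.2], which overlapped. mt:srRNA had 55.2, 104 and 108 CPM against 96.5, 135 and 110 CPM in the same groups, with overlap as well.

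Among the protein genes, mt:CoI, mt:CoIII, mt:Cyt-b and mt:ND5 were lower in ERR[cond.2] controls. mt:CoI had 6930, 7496 and 7959 CPM in ERR[cond.19-4] controls, against 6037, 4681 and 4685 CPM in ERR[cond.2] controls (log2 difference -0.54 ± 0.12 SE, edgeR adjusted p = 0.0025). mt:ND5, a core subunit of complex I, had 631, 633 and 667 CPM against 514, 382 and 330 CPM (-0.65 ± 0.17, edgeR adjusted p = 0.0083). In both genes the lowest ERR[cond.19-4] control lay above the highest ERR[cond.2] control. mt:CoIII had 5899, 6205 and 6720 CPM against 5693, 3995 and 4286 CPM (-0.43 ± 0.13, edgeR adjusted p = 0.0198). mt:Cyt-b had 3108, 3334 and 3441 CPM against 3072, 2048 and 2247 CPM (-0.42 ± 0.15, edgeR adjusted p = 0.0320). In mt:CoIII and mt:Cyt-b the first ERR[cond.2] control lay close to the ERR[cond.19-4] controls.

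The calls of mt:CoIII and mt:Cyt-b were lost in the fit of the control libraries alone (edgeR adjusted p = 0.0510 and 0.0639) and without ERR[cond.19-4] control 3, ERR[cond.2] control 2 or ERR[cond.2] control 3, each of which left 4 members called. mt:Cyt-b also lost its call without ERR[cond.19-4] control 1 or 2. Without ERR[cond.2] control 1, 8 members were lower instead of 5, and without both ERR[cond.2] libraries numbered 1, 10 were lower and 12 called. mt:CoI, mt:ND5 and both rRNAs kept their calls whichever of the 12 libraries was left out.

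**Figure D3:**
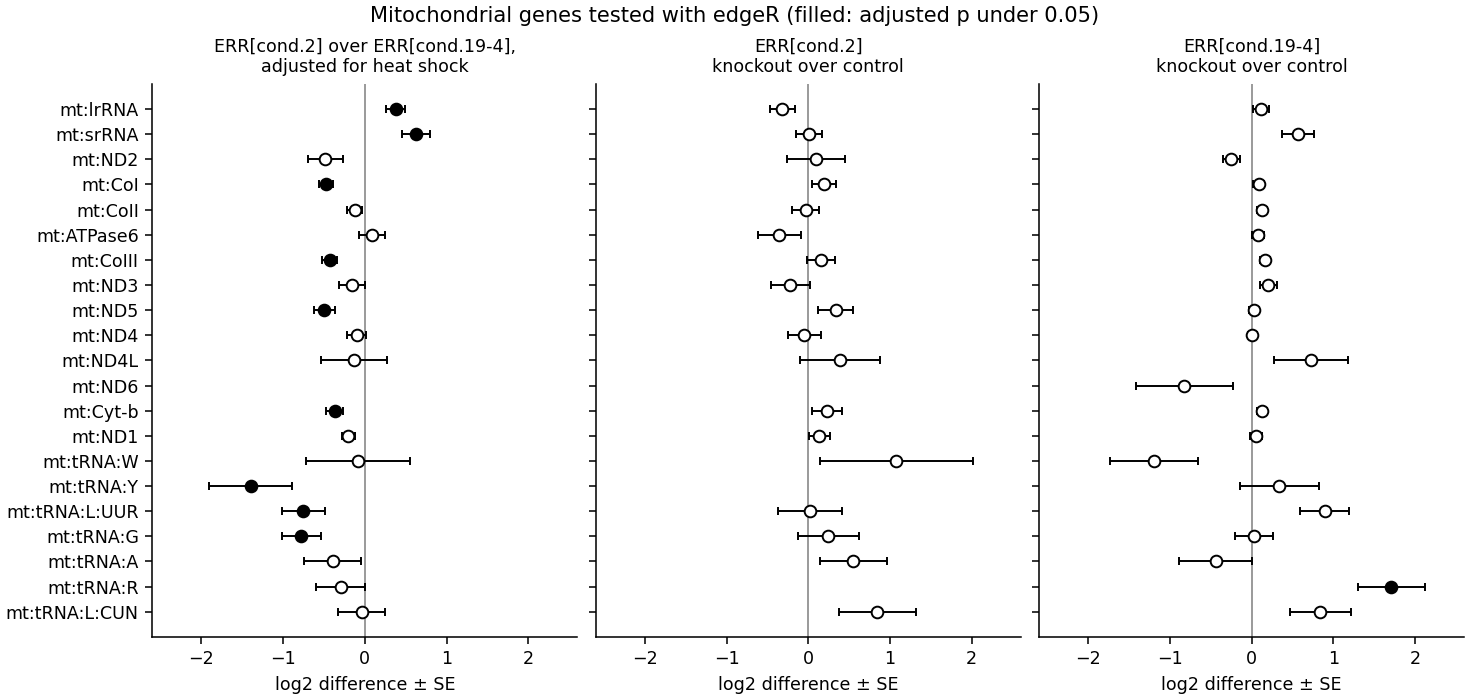
Log2 differences with SE of the mitochondrial genes tested with edgeR, for ERR[cond.2] over ERR[cond.19-4] with heat shock as a term (left), and for knockout over control in each stock (middle, right). Filled circles passed an adjusted p of 0.05: 9 between the stocks, 0 in ERR[cond.2] and 1, mt:tRNA:R, in ERR[cond.19-4].

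The other protein genes did not pass between the controls. mt:CoII differed by -0.05 ± 0.13, mt:ND4 by -0.08 ± 0.16, mt:ND1 by -0.25 ± 0.11, mt:ND2 by -0.66 ± 0.29, mt:ND3 by 0.05 ± 0.21 and mt:ND4L by 0.04 ± 0.59 (log2 ± SE, edgeR adjusted p from 0.0823 to 0.965). mt:ATPase6 had 2114, 2238 and 2135 CPM in ERR[cond.19-4] controls, against 3869, 1972 and 2107 CPM in ERR[cond.2] controls (0.29 ± 0.21, edgeR adjusted p = 0.282). ERR[cond.2] control 1 was above and the other 2 were below all 3 ERR[cond.19-4] controls.

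The mixture of the protein genes' counts showed the same gene. mt:ATPase6 and mt:ATPase8, the complex V subunits, made up 12.6 ± 2.10% of protein gene counts in ERR[cond.2] controls (SD, n = 3), with a range of 11.1 to 15.0%. The mean was 9.57 ± 0.320% in knockouts of the same stock. ERR[cond.19-4] females had 8.55 ± 0.504% as controls and 8.31 ± 0.539% as knockouts. Complex IV had the highest share, 62.8 ± 2.14% in ERR[cond.2] controls and 64.8 to 67.0% on average in the other groups. Complex III took 12.0 to 13.3% and complex I 11.5 to 12.6% on average, although 7 of the 13 protein genes encode complex I subunits. The 4 protein genes on the minus strand (mt:ND1, mt:ND4, mt:ND4L and mt:ND5) took 9.43 to 10.4% on average. These mixtures were described and not tested.

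**Figure D4:**
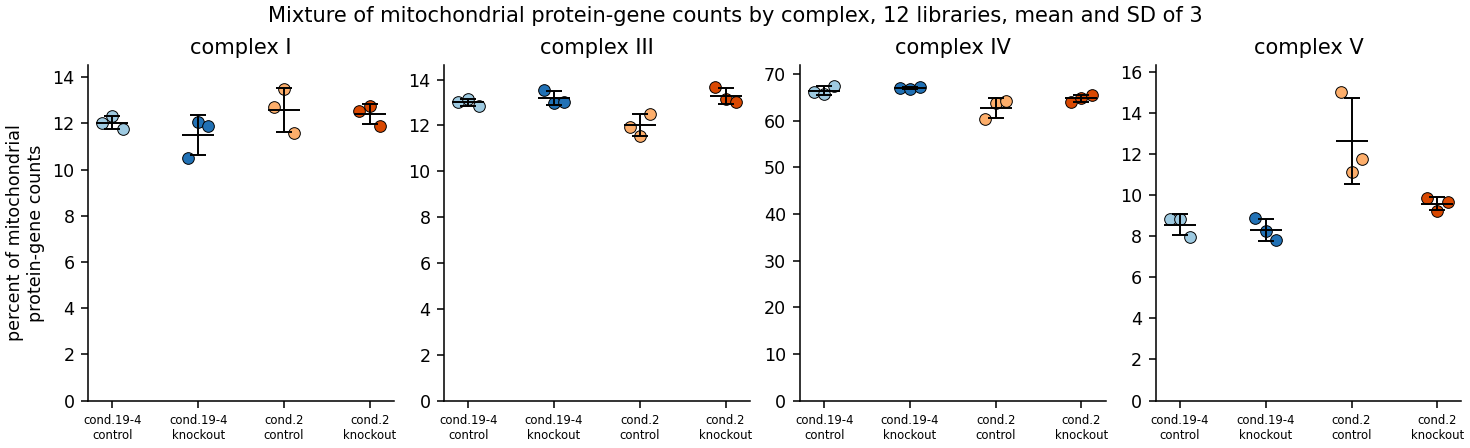
Percent of mitochondrial protein gene counts from the subunits of complexes I, III, IV and V, with 1 point per library and the mean and SD of 3 libraries per group; each axis starts at 0 and has its own scale. Complex V lies at 11.1 to 15.0% in ERR[cond.2] controls and at a mean of 8.31 to 9.57% in the other groups.

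Among the tRNA genes, mt:tRNA:G was lower in ERR[cond.2] controls. Its counts were 150, 88 and 162 in ERR[cond.19-4] controls, against 83, 55 and 36 in ERR[cond.2] controls (log2 difference -0.89 ± 0.34 SE, edgeR adjusted p = 0.0487). The groups overlapped after scaling, and the call was lost in 15 of 23 alternatives, in all of which it remained lower (-1.25 to -0.60). Over all 12 libraries, with 9 of 12 leave-one-out fits losing the call in each case, mt:tRNA:L:UUR (-0.75 ± 0.26, edgeR adjusted p = 0.0311) and mt:tRNA:Y (-1.40 ± 0.50, edgeR adjusted p = 0.0370) were lower as well. These are a leucine and a tyrosine tRNA, with 10 to 47 and 0 to 15 counts.

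Within ERR[cond.2], no mitochondrial gene passed between knockouts and controls. edgeR called 0 of 18 members tested, with 0 at an unadjusted p under 0.05, and DESeq2 called 0 with 1 at an unadjusted p under 0.05, beside 0.631% of all genes called by edgeR. Of all 9660 genes tested, 2162 had an unadjusted p under 0.05 by edgeR, and DESeq2 called 566 with 2061 at an unadjusted p under 0.05. With all 12 libraries in 1 fit, edgeR called 1414 of 10029 genes and 0 of 20 members. The members' median log2 difference was 0.15, beside -0.01 over all genes. It ran from 0.04 without control 3 to 0.35 without control 1, and was 0.26 without both libraries numbered 1. mt:lrRNA was the only member whose groups did not overlap, at 133504, 112035 and 111037 CPM in controls and 103409, 103537 and 80701 CPM in knockouts (-0.32 ± 0.16, edgeR adjusted p = 0.270). Over all genes tested, the groups did not overlap in 30.5%. mt:ND5 differed by 0.34 ± 0.21 (edgeR adjusted p = 0.380) and mt:ATPase6 by -0.35 ± 0.27 (edgeR adjusted p = 0.449).

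Within ERR[cond.19-4], 1 of 21 members tested was called, beside 3.7% of all genes. By edgeR 7 of the 21 had an unadjusted p under 0.05, beside 1492 of 9717 genes, and DESeq2 called 1 with 5 at an unadjusted p under 0.05. The called member was mt:tRNA:R, an arginine tRNA between mt:ND3 and mt:ND5 (FBgn0013704; 6055 to 6118, plus strand), which was higher in knockouts. Its counts were 8, 8 and 8 in controls and 36, 21 and 20 in knockouts, without overlap (log2 difference 1.71 ± 0.41 SE, edgeR adjusted p = 0.0397). The same gene had 8, 7 and 8 counts in ERR[cond.2] controls, against 23, 9 and 14 in ERR[cond.2] knockouts. With the stock as a term, it differed by 1.29 ± 0.31 (edgeR adjusted p = 0.0557). The ERR[cond.19-4] call rests on few counts and was lost in 8 of 15 alternatives, among them the removal of any 1 library other than knockout 3 (edgeR adjusted p up to 0.240). Its log2 difference was between 1.38 and 1.86 throughout.

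Both leucine tRNAs of ERR[cond.19-4] also had groups that did not overlap. mt:tRNA:L:UUR had 17, 27 and 27 counts in controls and 41, 41 and 47 in knockouts (0.89 ± 0.30, edgeR adjusted p = 0.162). mt:tRNA:L:CUN had 23, 11 and 11 counts against 22, 26 and 30, which did not overlap only after scaling (0.84 ± 0.37, edgeR adjusted p = 0.301). With mt:tRNA:R, 3 of 21 members did not overlap, beside 20.4% of all genes tested. Summed, the tRNA genes had 276, 186 and 249 counts in ERR[cond.19-4] controls and 260, 302 and 288 in knockouts, and 157, 107 and 83 in ERR[cond.2] controls and 245, 165 and 146 in knockouts. With the stock kept, the tRNA share was 0.000296 percentage points higher in knockouts (exact permutation p = 0.025, adjusted 0.18).

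Of 12 protein genes tested in ERR[cond.19-4], 10 had a positive and 2 a negative log2 difference, with a median of 0.08. The 2 with few counts had the differences farthest from 0, and neither passed: mt:ND4L at 7.49, 3.50 and 5.52 CPM in controls and 2.36, 12.3 and 12.6 CPM in knockouts (0.72 ± 0.45, edgeR adjusted p = 0.500), and mt:ND6 (-0.82 ± 0.59, edgeR adjusted p = 0.570). mt:CoIII had 5899, 6205 and 6720 CPM in controls and 7512, 6955 and 6579 CPM in knockouts, with overlap (0.17 ± 0.06, edgeR adjusted p = 0.233). mt:srRNA differed by 0.57 ± 0.19 (edgeR adjusted p = 0.165), with knockout 1 at 55.2 CPM among the controls and knockouts 2 and 3 at 104 and 108 CPM above them. Without knockout 1, mt:srRNA and mt:ND4L were called higher. mt:ND2, at 133, 121 and 156 CPM in controls and 100, 109 and 135 CPM in knockouts, had a negative difference (-0.25 ± 0.10, edgeR adjusted p = 0.277).

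No member passed for a difference between the stocks in the change with heat shock. edgeR called 0 of 20 members for the interaction, with 1 at an unadjusted p under 0.05 and likewise 0 and 1 by DESeq2, beside 0.0598% of all genes called. Of all 10029 genes, 2222 had an unadjusted p under 0.05 by edgeR, and DESeq2 called 481. That 1 member by edgeR was mt:lrRNA, with a difference between the changes of -0.42 ± 0.18 (edgeR adjusted p = 0.205). The rRNA share gave -2.24 percentage points for the same contrast (exact permutation p = 0.03, adjusted 0.18). That permutation p refers to no change in either stock and is not an exact test of equal changes. With the stock as a term over 12 libraries, edgeR called 0 of 20 members between knockouts and controls, with 2 at an unadjusted p under 0.05 and likewise 0 and 2 by DESeq2, beside 1.73% of all genes called and 1707 of 10029 at an unadjusted p under 0.05 by edgeR.

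Beside these differences, markers of several tissues also differed between the groups. A list of 7 muscle genes held Act88F, fln, TpnC4, Mlc2, Mhc, up and wupA, not all of them particular to flight muscle. They took 0.0348 to 0.0440% of counts in controls and 0.0445 to 0.0491% in knockouts of ERR[cond.19-4]. In ERR[cond.2] they took 0.0282 to 0.0321% in controls and 0.0356 to 0.0375% in knockouts. Knockouts were above controls in both stocks without overlap. Follicle cell genes of the ovary (5 of 5 found) took 0.244 to 0.591% in ERR[cond.2] controls and 0.773 to 1.84% in the other groups. Gut genes (5 of 5) were lower in knockouts than in controls of ERR[cond.19-4] (0.593 to 0.612% against 0.666 to 0.842%) and higher in knockouts of ERR[cond.2] (0.453 to 0.522% against 0.368 to 0.421%), both without overlap. Germline genes (6 of 6) took 0.162 to 0.163% in knockouts and 0.166 to 0.170% in controls of ERR[cond.19-4], without overlap, and 0.143 to 0.161% and 0.137 to 0.159% in those of ERR[cond.2], with overlap. These marker shares were described and not tested. Among single genes tested, knockouts and controls did not overlap in 20.4% in ERR[cond.19-4] and 30.5% in ERR[cond.2]. In whole animals, fewer cells of a type and less RNA per cell cannot be told apart, and the part of these tissues in the mitochondrial shares was not tested. Among RNAs mostly without a poly(A) tail, snRNAs took 0.00274 to 0.00383% in ERR[cond.2] controls and 0.00137 to 0.00259% elsewhere. The snoRNAs went the other way, with 0.00251 to 0.00268% in ERR[cond.2] controls and 0.00256 to 0.00386% elsewhere, with overlap. Histone genes took 0.000381 to 0.000761% and nuclear rRNA genes 0.0102 to 0.0355%, both with overlap of all groups. The part of poly(A) selection in the rRNA shares was not tested.

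Nuclear genes that copy and transcribe the mitochondrial genome did not pass within either stock. Of mtDNA copying genes, 4 of 5 were tested, and of mtDNA transcription genes 5 of 5, with 0 called by edgeR in either stock (1 and 0 at an unadjusted p under 0.05 in ERR[cond.2], beside 2162 of 9660 genes, and 1 and 2 in ERR[cond.19-4], beside 1492 of 9717). mtRNApol, the mitochondrial RNA polymerase PolrMT, had 29.6 ± 0.536 CPM in ERR[cond.19-4] controls and 26.0 ± 1.13 CPM in knockouts (SD, n = 3; log2 difference -0.18 ± 0.08 SE, edgeR adjusted p = 0.271), and 29.0 ± 3.41 against 28.7 ± 2.99 CPM in ERR[cond.2] (-0.02 ± 0.13, edgeR adjusted p = 0.927). TFAM, which packages mitochondrial DNA, differed by -0.02 ± 0.04 in ERR[cond.19-4] and -0.01 ± 0.06 in ERR[cond.2] (edgeR adjusted p = 0.845 and 0.954). mtTFB2, the transcription factor that acts with the polymerase, differed by 0.07 ± 0.10 and -0.05 ± 0.13 (edgeR adjusted p = 0.798 and 0.860).

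The mitochondrial DNA polymerase subunit tam (PolG1) had 40.7 ± 2.32 CPM in controls and 34.4 ± 0.438 CPM in knockouts of ERR[cond.2] (SD, n = 3). In ERR[cond.19-4] it had 29.4 ± 2.39 and 29.9 ± 2.61 CPM, respectively. Its difference in ERR[cond.2] did not pass (-0.25 ± 0.08, edgeR adjusted p = 0.157). Between the control groups, tam was higher in the ERR[cond.2] stock (0.47 ± 0.09, edgeR adjusted p = 0.000914), as was bsf, a mitochondrial RNA-binding protein (0.29 ± 0.05, edgeR adjusted p = 0.000656). Of the 4 mtDNA copying genes tested there, 0 were lower and 1 was higher. Of the 5 mtDNA transcription genes, 0 were lower and 0 higher, beside 46.9% of all genes called. mtDNA-helicase, which unwinds the genome for copying, differed by -0.20 ± 0.09 in ERR[cond.19-4] and -0.09 ± 0.11 in ERR[cond.2] (edgeR adjusted p = 0.281 and 0.659). bsf differed by 0.05 ± 0.04 and 0.02 ± 0.07 within the stocks (edgeR adjusted p = 0.633 and 0.882).

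The lists for mitochondrial RNA processing and stability (9 of 10 tested), mitochondrial translation (20 of 21) and regulators of mitochondrial biogenesis (3 of 3) also had 0 genes called by edgeR in either stock. At an unadjusted p under 0.05 they had 1, 5 and 2 genes in ERR[cond.2], beside 2162 of all 9660, and 1, 1 and 0 in ERR[cond.19-4], beside 1492 of all 9717. Between the controls, 2, 3 and 2 genes of these lists were lower and 2, 5 and 1 were higher, beside the 46.9% called of all genes.

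The nuclear subunits of complexes I to V, the partners of the mitochondrial proteins, were tested for 67 of 68 genes. In ERR[cond.19-4], 66 had a positive and 1 a negative log2 difference, with a median of 0.10, beside 4751 positive of 9717 genes tested. In ERR[cond.2] 49 were positive and 18 negative, with a median of 0.12, beside 4743 positive of 9660 genes. edgeR called 0 of them in either stock. At an unadjusted p under 0.05 there were 22 in ERR[cond.19-4], beside 1492 of 9717 genes, and 21 in ERR[cond.2], beside 2162 of 9660. The mitochondrially encoded subunits had medians of 0.08 (12 tested) and 0.14 (11 tested) in the same comparisons. Between the controls, 19 nuclear subunits were lower and 10 were higher in ERR[cond.2], against 4 and 0 of 11 mitochondrial protein genes and 2429 and 2278 of all 10029 genes.

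**Figure D5:**
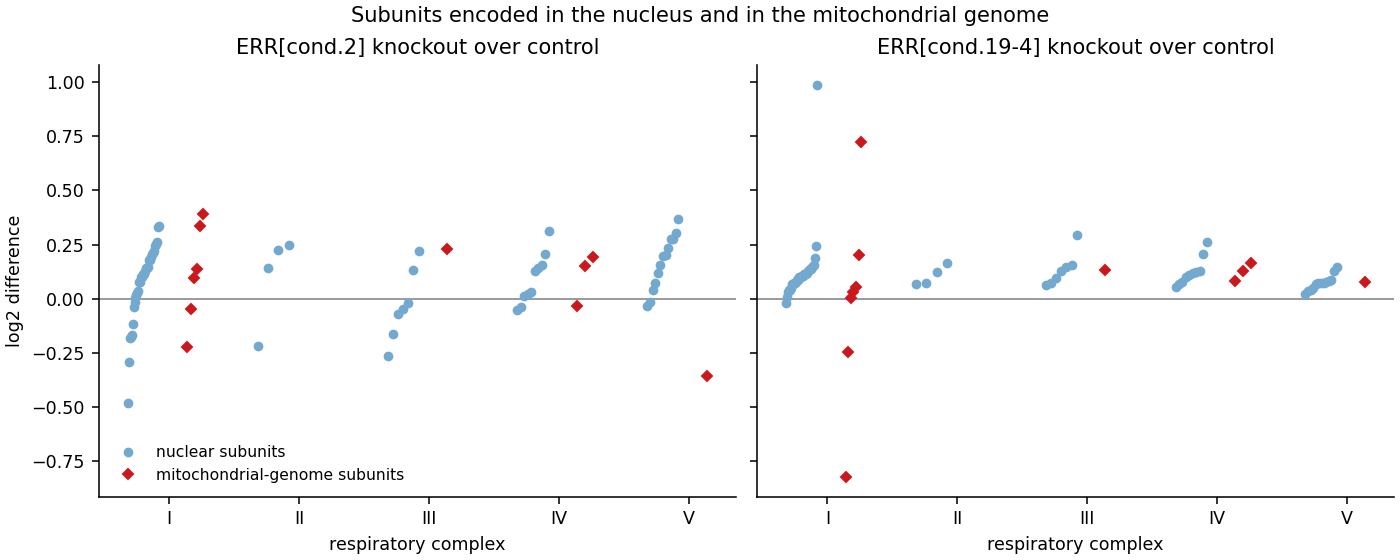
Log2 difference of knockout over control for nuclear (circles) and mitochondrially encoded (diamonds) subunits of each respiratory complex, in ERR[cond.2] (left) and ERR[cond.19-4] (right). The nuclear subunits have medians of 0.12 and 0.10, and no subunit of either kind passed edgeR's adjusted p of 0.05.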

How the data were processed

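The authors prepared poly(A)-selected NEBNext Ultra libraries, aligned reads with TopHat and deposited raw counts per gene made with HTSeq, with no normalization. Tool versions, genome build and use of strand: not given in the sources used here. All 37 members were found by ID in BDGP6.54, but only 17 have the same coordinates there, so coordinates are the table's own and no sequence is printed. Groups came from sample titles. Counts were scaled by TMM and tested with edgeR 4.0.16 (R 4.3.3, filterByExpr, glmQLFit, Benjamini-Hochberg over all genes, threshold 0.05), using 6 libraries within a stock and 12 otherwise. SE was the log2 difference over the square root of F. Shares and ratios had exact permutation tests over libraries. For the difference between the stocks in the knockout change, labels were permuted within each stock. Its p therefore refers to no change in either stock and not to equal changes. The fits were checked on simulated counts in which 200 genes were changed. DESeq2 1.42.0, other scalings, filters, denominators and left-out libraries were alternatives. Total counts bound precision, and values cover the spread between libraries only. Every member is accounted for. Nuclear genes named were those past the threshold within a stock, plus PolrMT, TFAM, mtTFB2, tam, mtDNA-helicase, bsf and ERR, and the 3 most abundant other genes for scale. mEFG2 was not matched. The members and lists were chosen with earlier results of these data known.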

Additional observations from a re-analysis of the deposited data

How the results depend on the processing

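Of the alternatives, 178 counts of called members stayed within 1.5 times the reported count and 34 did not, and no called gene changed direction. In ERR[cond.19-4] the 1 called member became 0 at an adjusted p of 0.01, with at least 10 counts in every library or with all 12 libraries in 1 fit, and 2 with every gene of at least 1 count or with scaling to the mitochondrial protein genes. Leaving out a library gave 0 to 3. Between the controls, the 7 called (5 lower) became 4 (2 lower) at 0.01, 3 (0 lower) with scaling to the mitochondrial protein genes, 4 (2 lower) with control libraries only and 12 (10 lower) without both ERR[cond.2] libraries numbered 1. Leaving out a library gave 4 to 10 called and 2 to 8 lower. Between the stocks, the 9 called became 3 (3 lower, 0 higher) at 0.01 and 3 (0 lower) with scaling to the mitochondrial protein genes, and 11 were lower without both libraries numbered 1. Leaving out a library gave 7 to 13 called, 5 to 11 lower and 2 higher. Knockout against control with the stock as a term gave 0 to 1 called. Over all genes, DESeq2 called 566 in ERR[cond.2] against 61 by edgeR (1414 with all 12 libraries in 1 fit), 481 against 6 for the interaction and 425 against 174 with the stock as a term. The causes were not tested beyond what each alternative changes (threshold, scaling, libraries or tool).

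For shares and ratios, the results below had an alternative on the other side of an unadjusted p of 0.05 from the main value, with exact permutation p in parentheses. The difference between the stocks in the knockout change of the whole mitochondrial share was -2.18 points (exact permutation p = 0.075, adjusted 0.212). It was -2.80 with yolk protein genes out of the denominator (exact permutation p = 0.03). With mt:lrRNA out of the denominator, or with protein coding counts as denominator, it was -2.73 (exact permutation p = 0.065). With a library left out it was -2.76 to -1.42 (exact permutation p = 0.025 to 0.215). For the rRNA share it was -2.29 without both libraries numbered 1 (exact permutation p = 0.0667) and -2.67 to -1.58 with a library left out (exact permutation p = 0.005 to 0.085), and for the log2 ratio of mt:lrRNA to protein genes -0.52 to -0.35 (exact permutation p = 0.045 to 0.15). Between the stocks, the whole share differed by 0.910 points (exact permutation p = 0.2, adjusted 0.327), and by 0.623 to 1.29 with a library left out (exact permutation p = 0.01 to 0.395). The rRNA share, at 1.64 points (exact permutation p = 0.02), moved past 0.05 only without both libraries numbered 1 (1.27, exact permutation p = 0.09). With a library left out it was 1.37 to 1.97 (exact permutation p = 0.005 to 0.045). Knockout against control with the stock kept gave 0.225 points for the protein share without both libraries numbered 1 (exact permutation p = 0.0333) and 0.133 to 0.312 with a library left out (exact permutation p = 0.02 to 0.315). With a library left out it gave 0.000214 to 0.000346 points for the tRNA share (exact permutation p = 0.005 to 0.07), and log2 differences of -0.24 to -0.17 for mt:lrRNA to protein genes (p = 0.035 to 0.18) and of 0.28 to 0.52 for mt:srRNA to mt:lrRNA (p = 0.03 to 0.265). The tRNA and low protein genes are limited by counts.

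Same-numbered control and knockout libraries did not deviate together (correlations from -0.00150 to 0.0466 in ERR[cond.19-4] and from -0.298 to 0.00479 in ERR[cond.2]), so that the numbers were not taken as pairs, and not every library correlated best with its own number. With the replicate number as a block, edgeR called 0 members in ERR[cond.2], 1 in ERR[cond.19-4] (mt:ND2, lower by -0.25, adjusted p = 0.0281, in place of mt:tRNA:R), 0 for the interaction, 6 between the controls, 9 between the stocks and 0 with the stock as a term.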
